A study of Mus musculus with 12 samples.

Results

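The genes described here are 9 secreted Wnt and BMP signals and antagonists through which connective-tissue cells of the gut instruct the epithelium: Wnt5a, Wnt2b, Rspo3, Sfrp1, Sfrp2, Dkk3, Bmp2, Bmp4 and Grem1. They were chosen by name, and 8 of the 9 were listed among the 14907 genes with deposited values. Sfrp2, a secreted Wnt inhibitor, was not analysed here. Expression was measured in primary mesenchymal cells of the small intestine of C57/Bl6 mice, grown in culture to passage 3 and sorted on GFP, as 3′ messenger RNA libraries (QuantSeq, which reads transcripts from their tail). The 4 groups of 3 libraries were MyD88ko cells with LPS, MyD88ko cells untreated, wt cells with LPS and wt cells untreated. LPS, a cell-wall molecule of Gram-negative bacteria sensed through the receptor TLR4 and the adaptor MyD88, was given at 2 µg/ml for 6 hours after a night without serum. All groups are labelled with the floxed allele and the reporter (MyD88F/F-RosamTmG), and the MyD88ko samples add ColVIcre, a Cre under a collagen VI promoter that is active in part of the mesenchyme. In this reporter, GFP is switched on by Cre. The wt samples are labelled without Cre, whereas the design text calls them Cre-positive. GFP-positive wt cells would need Cre, and Cre with a floxed allele would delete Myd88, so these statements conflict for wt cells. The sources used here do not settle which of them is right. If the sample labels are right, loss of MyD88 and the presence of Cre cannot be told apart. The labels number the replicates without naming animals, so the p-values measure the spread between these libraries, which may be technical. Untreated and LPS libraries carry separate runs of library codes, so the code series and the treatment cannot be told apart.

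In the intestinal crypt, Wnt proteins keep stem cells dividing, and R-spondins strengthen that signal by keeping Wnt receptors on the cell surface. Secreted frizzled-related proteins bind Wnts outside the cell and blunt them. BMP proteins act the other way, favouring differentiation toward the villus, and antagonists such as Gremlin 1, made by mesenchyme near the crypt base, hold BMP away from the stem cells. Most of these signals in the gut are made by mesenchymal cells, which is the kind of cell cultured here.

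Values are normalized read counts, scaled by the authors and rounded to whole numbers. A single read was worth between 0.774 and 1.577 of these units, at an estimated 2.5 to 5.3 megareads per library, so values near 0 rest on a few reads. Myd88 itself had 24, 22 and 5 in MyD88ko LPS libraries and 14, 8 and 10 in MyD88ko untreated libraries, against 171, 204 and 213 in wt LPS and 99, 98 and 103 in wt untreated libraries. The labels do not say which exons were deleted, so reads from the transcript end check the genotype only in part. All 11 fibroblast markers were present, and their summed level was 131248 to 141849 in MyD88ko LPS, 89025 to 111330 in MyD88ko untreated, 70613 to 117284 in wt LPS and 43643 to 101308 in wt untreated libraries. Col1a1 gave the largest part of this sum in every library. Of 12 epithelial markers, 4 had values in all libraries. Their sum was 393 and 196 in wt untreated replicates 1 and 3, 13 in replicate 2 and at most 27 in any library of the other groups. Krt19, an epithelial keratin, had 166, 0 and 62 in the wt untreated libraries. Values that rest on wt untreated cells were therefore recomputed without replicates 1 and 3, which leaves 1 library there that is assumed to vary like the other groups. Of 8 leukocyte markers, 5 had values in all libraries and summed to 17 to 58, and 0 of 6 endothelial markers did. Summed smooth-muscle markers (5 of 6 with values) were 37907 to 45263 in MyD88ko LPS, 33440 to 39262 in MyD88ko untreated, 35438 to 40690 in wt LPS and 21990 to 24748 in wt untreated libraries. Those of enteric glia and neurons (4 of 6) were 516 to 1397 in MyD88ko LPS, 321 to 512 in MyD88ko untreated, 1185 to 2539 in wt LPS and 529 to 854 in wt untreated libraries. Those of villus-tip fibroblasts (2 of 6) were 785 to 1100 in MyD88ko LPS, 853 to 1937 in MyD88ko untreated, 1235 to 1667 in wt LPS and 1831 to 2186 in wt untreated libraries. In wt cells all 3 sums thus differed between LPS and untreated libraries without overlap, and between genotypes the smooth-muscle and glial sums did so untreated and the villus-tip sum with LPS. The part of these sums in the results that follow was not tested. Pdgfra, a receptor of fibroblasts, had 131, 144 and 113 in MyD88ko LPS and 126, 158 and 73 in MyD88ko untreated libraries, against 383, 589 and 380 in wt LPS and 355, 611 and 314 in wt untreated libraries.

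Between genotypes, Wnt5a was higher and Sfrp1 lower in MyD88ko cells, whether LPS was given or not. With LPS, 1 of 8 members rose, 1 fell and 6 did not pass the test (limma, Benjamini-Hochberg adjusted p under 0.05 over all 12385 genes tested), where 1.49% of all genes tested were called, 0.452% of them higher and 1.04% lower as shares of all genes. Without LPS the count was again 1 higher, 1 lower and 6 not called, with 1.88% of all genes called, 0.791% higher and 1.09% lower. In 4 of 8 members the MyD88ko and wt libraries did not overlap with LPS and in 4 of 8 without it, where 15.8% and 20.4% of all genes did not overlap. The median log2 fold change of the members was 0.11 with LPS and −0.35 untreated, beside −0.00051 and 0 over all genes. With LPS in wt cells Wnt5a was called lower and Bmp2 higher, with 6 of 8 not called. Bmp2 was tested only through wt LPS, the group where it was high, so its call is a description. The same holds for its lack of overlap for LPS in wt cells and between genotypes with LPS, which the counts here include. In this comparison 19.2% of all genes were called, 9.55% higher and 9.66% lower, so the count of members lies near the background. In MyD88ko cells 0 of 8 members were called by limma with LPS, 1 had an unadjusted p under 0.05, and 5.98% of all genes were called, 2.58% higher and 3.4% lower. LPS and untreated libraries did not overlap in 3 members in wt cells and in 1 in MyD88ko cells, where 34.8% and 25.5% of all genes did not. The median of the members was 0.07 for LPS in MyD88ko cells and 0.02 for LPS in wt cells, beside 0.0036 and 0.01 over all genes. The genotype comparisons and the LPS comparisons use the same libraries, so their values are not independent of each other.

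**Figure D1:**
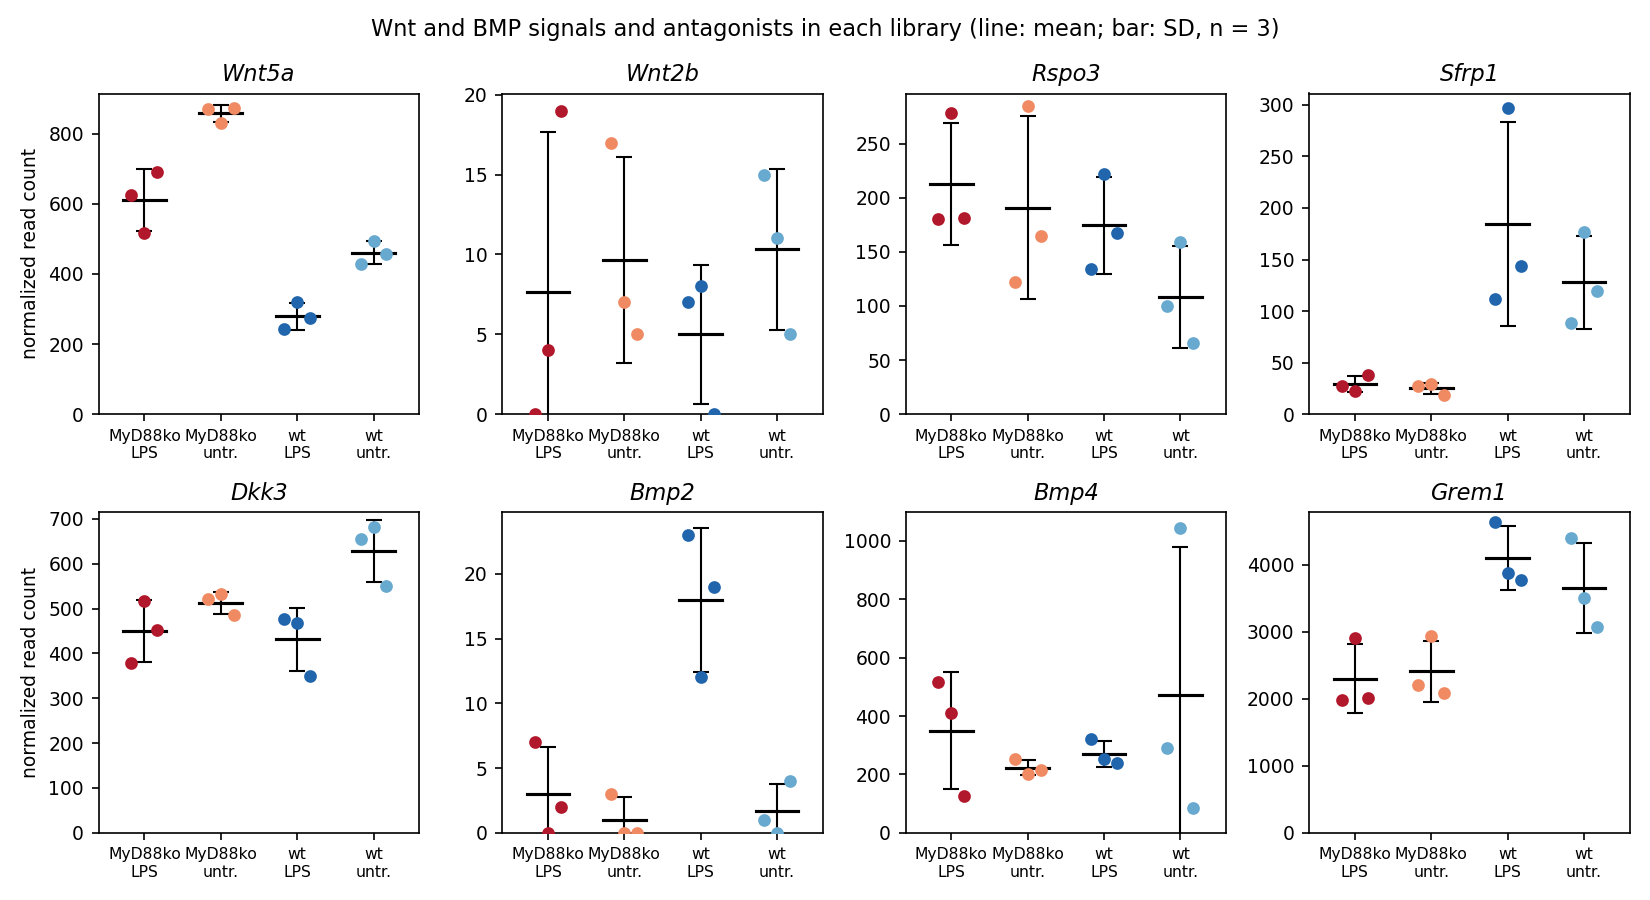
Normalized read count (vertical axes, from 0) of the 8 listed genes in each of the 12 libraries, with points for libraries, lines for group means and bars for the SD over 3 libraries. Wnt5a is highest in both MyD88ko groups and Sfrp1 lowest there, Bmp2 stands above the other groups in wt LPS cells, and the wide wt untreated bar of Bmp4 comes from a library at 1045.

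Wnt5a, a ligand that mostly signals without β-catenin and guides tissue polarity and crypt repair, changed with both genotype and LPS. The gene, on chromosome 14 (28504750 to 28527447, plus strand, mm10), had 624, 518 and 691 normalized counts in MyD88ko LPS, 871, 830 and 873 in MyD88ko untreated, 244, 319 and 274 in wt LPS and 429, 494 and 458 in wt untreated libraries. Every MyD88ko library lay above every wt library, and within each genotype every LPS library lay below every untreated one. With LPS the level was 2.18-fold higher in MyD88ko than in wt cells (log2 1.13 ± 0.19 SE, limma adjusted p = 0.00282). Without LPS it was 1.86-fold higher (log2 0.90 ± 0.19 SE, adjusted p = 0.0162). The untreated call was lost without trend in limma (adjusted p = 0.0769), without wt untreated replicate 1 (0.0945), without MyD88ko untreated replicate 1 (0.0525), 2 (0.0660) or 3 (0.0941), and when wt untreated replicates 1 and 3 were both left out (log2 0.79, adjusted p = 0.404). Under LPS, Wnt5a fell in wt cells (log2 −0.73 ± 0.19 SE, limma adjusted p = 0.0112), a call that did not hold without wt LPS replicate 1 (0.0584) or with wt untreated replicates 1 and 3 both left out (0.0718). In MyD88ko cells its LPS difference was log2 −0.50 ± 0.19 SE and did not pass (adjusted p = 0.133). The difference between the 2 responses was itself 0.23 on the log2 scale (95% interval −0.34 to 0.79, adjusted p = 0.823), so the responses were not shown to differ. Ordered by mean, the groups ran MyD88ko untreated at 858 ± 24.3, MyD88ko LPS at 611 ± 87.2, wt untreated at 460 ± 32.6 and wt LPS at 279 ± 37.7 (SD, n = 3 each). Among neighbours in that order, wt untreated and wt LPS differed by the test, MyD88ko untreated and MyD88ko LPS did not, and MyD88ko LPS and wt untreated were not compared. In the authors' deposited table the adjusted p of Wnt5a was 0.478 between genotypes with LPS, 0.609 untreated and 0.455 for LPS in wt cells. In these bulk libraries, fewer cells of a type and less RNA per cell cannot be told apart. Pdgfra was lower and the summed fibroblast markers reached higher in the same MyD88ko libraries, and the part of cell makeup in the Wnt5a result was not tested.

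Wnt2b, a ligand of the β-catenin pathway made by gut mesenchyme, was near the limit of detection. Encoded on chromosome 3 (104945272 to 104961921, minus strand), it had 0, 4 and 19 in MyD88ko LPS, 17, 7 and 5 in MyD88ko untreated, 7, 8 and 0 in wt LPS and 15, 11 and 5 in wt untreated libraries. The groups overlapped in all 4 comparisons and none was called, and it was tested only because its wt untreated mean reached 10.3. Its intervals were wide, with log2 −1.92 to 2.23 for MyD88ko against wt with LPS, so a difference was not detectable at this depth.

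Rspo3, the R-spondin that amplifies Wnt signals to crypt stem cells, was not called in any comparison. The locus is on chromosome 10 (29452416 to 29535867, minus strand), and it had 180, 278 and 181 in MyD88ko LPS, 122, 285 and 165 in MyD88ko untreated, 134, 222 and 167 in wt LPS and 100, 159 and 66 in wt untreated libraries. In each of the 4 groups the library numbered 2 was the highest, and the groups overlapped in all 4 comparisons. LPS against untreated in wt cells gave log2 0.74 (95% interval 0.05 to 1.44, limma adjusted p = 0.130), and the value passed without wt untreated replicate 2 (log2 1.06, adjusted p = 0.0413). MyD88ko against wt untreated gave log2 0.81 (0.11 to 1.51, adjusted p = 0.238), and 0.17 with wt untreated replicates 1 and 3 left out. The summed fibroblast markers ran beside it, at 131248, 141849 and 138297 in MyD88ko LPS, 89025, 111330 and 103110 in MyD88ko untreated, 70613, 117284 and 73949 in wt LPS and 52110, 101308 and 43643 in wt untreated replicates 1, 2 and 3. Replicate 2 was thus the highest of its group in the markers as well, and their part in the Rspo3 values was not tested.

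Sfrp1, a secreted frizzled-related protein that binds Wnts and blunts their signal, was lower in MyD88ko cells under both conditions. Encoded on chromosome 8 (23411502 to 23449632, plus strand), it had 27, 23 and 38 in MyD88ko LPS and 27, 29 and 19 in MyD88ko untreated libraries, against 112, 297 and 144 in wt LPS and 88, 177 and 119 in wt untreated libraries. The highest MyD88ko library, at 38, lay below the lowest wt library, at 88. Sfrp1 was 5.71-fold lower in MyD88ko than in wt cells with LPS (log2 −2.51 ± 0.36 SE, limma adjusted p = 0.000553). It was 4.84-fold lower untreated (log2 −2.27 ± 0.36 SE, adjusted p = 0.00162). Both calls held in all 17 alternatives tried, with log2 values of −2.81 to −2.11 with LPS and −2.80 to −2.01 untreated. Without wt untreated replicates 1 and 3 the untreated value was −2.80 (adjusted p = 0.0303). In the authors' deposited table its adjusted p was 6.46e-05 with LPS and 0.000545 untreated. LPS gave log2 0.21 in MyD88ko cells (95% interval −0.55 to 0.97, adjusted p = 0.790) and 0.45 in wt cells (−0.31 to 1.21, adjusted p = 0.422), neither of them called. The order of means was wt LPS at 184 ± 98.9, wt untreated at 128 ± 45.2, MyD88ko LPS at 29.3 ± 7.77 and MyD88ko untreated at 25 ± 5.29 (SD, n = 3 each), and neither pair of groups within a genotype differed by the test. The Pdgfra values above split the 2 genotypes in the same direction without overlap, whereas the summed fibroblast markers went the other way, at 131248 to 141849 in MyD88ko LPS against 70613 to 117284 in wt LPS libraries. Col1a1, the largest part of that sum, had 83203, 76251 and 72836 against 35191, 60610 and 36670 in these groups. Among the other markers Pdgfrb was also higher without overlap, while Col3a1, Col6a1 and Thy1 overlapped. The part of Pdgfra or of the summed markers in the Sfrp1 difference was not tested.

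Dkk3, a divergent member of the Dickkopf family of Wnt modulators, varied little between replicates and passed the test in no comparison. Its locus on chromosome 7 (112116017 to 112159057, minus strand) gave 379, 517 and 453 in MyD88ko LPS, 521, 532 and 485 in MyD88ko untreated, 477, 467 and 350 in wt LPS and 655, 681 and 551 in wt untreated libraries. The 3 wt untreated libraries were the highest of the 12. LPS against untreated in wt cells gave log2 −0.55 ± 0.20 SE with no overlap, just outside the threshold (limma adjusted p = 0.0597). It passed in 1 of the 17 alternatives, where genes whose mean stayed under 50 in every group were left out (adjusted p = 0.0459), and was −0.67 without wt untreated replicates 1 and 3. The same contrast in MyD88ko cells was log2 −0.20 (95% interval −0.62 to 0.22, adjusted p = 0.617), and MyD88ko against wt was 0.06 with LPS (−0.36 to 0.48) and −0.29 untreated (−0.71 to 0.13).

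**Figure D2:**
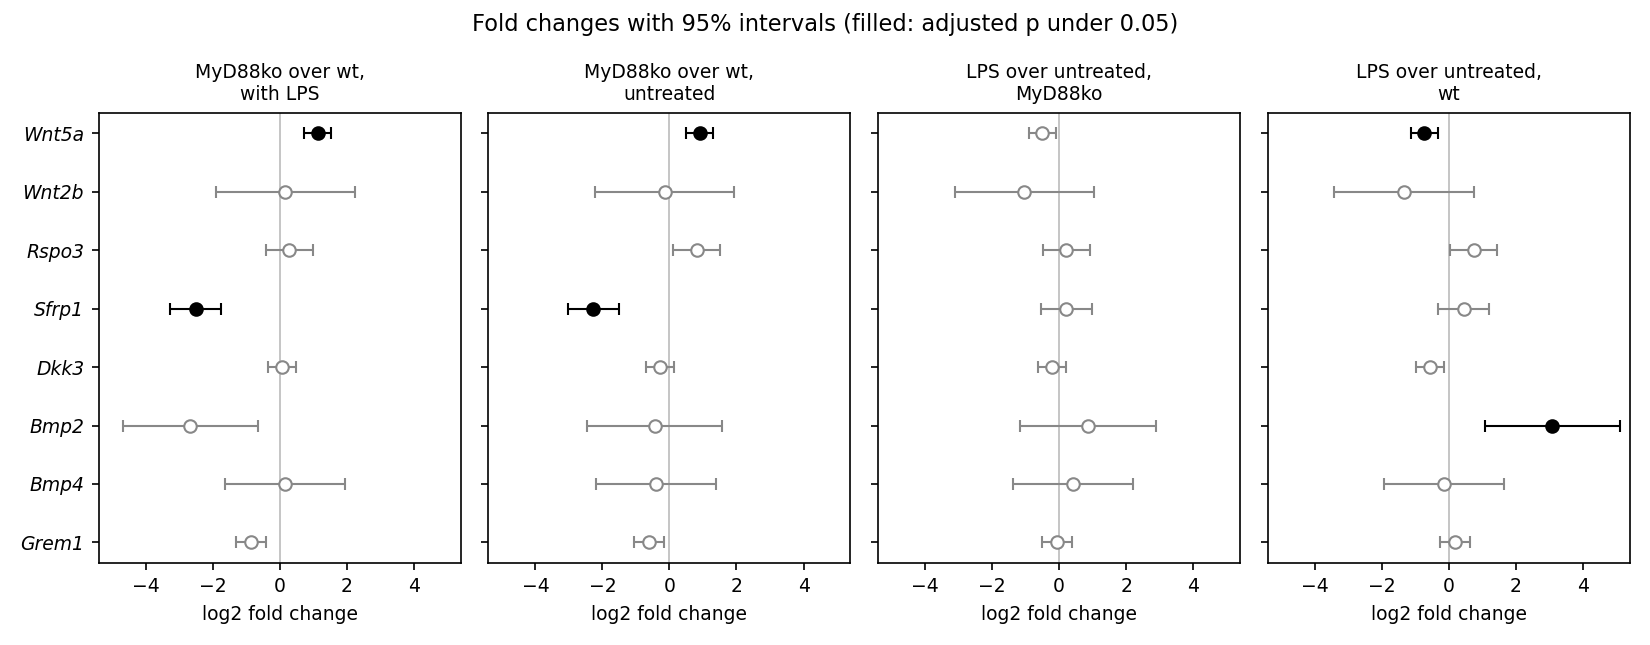
Log2 fold change (horizontal axes) of the 8 listed genes in 4 comparisons, with bars for the 95% interval and filled points for an adjusted p under 0.05. Wnt5a and Sfrp1 are filled on opposite sides of 0 in both genotype comparisons, Wnt5a and Bmp2 for LPS in wt cells, and no gene for LPS in MyD88ko cells.

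Bmp2, a BMP ligand that in the gut is associated with differentiated cells, was seen mainly in wt cells with LPS. Located on chromosome 2 (133552159 to 133562885, plus strand), it had 7, 0 and 2 in MyD88ko LPS, 3, 0 and 0 in MyD88ko untreated, 23, 12 and 19 in wt LPS and 1, 0 and 4 in wt untreated libraries. The lowest wt LPS library, at 12, lay above every other library, and 4 of the 12 libraries were listed at 0. In wt cells Bmp2 was called higher with LPS (log2 3.10 ± 0.97 SE on the log2(value + 1) scale, limma adjusted p = 0.0298). At such low values the size depends on the added constant, with log2 1.80 at 5 and 3.58 at 0.5, where the call was lost (adjusted p = 0.0539). The call was also lost without wt untreated replicate 1 (0.0690) or 2 (0.0958), without wt LPS replicate 1 (0.110), 2 (0.0505) or 3 (0.0837), and when wt untreated replicates 1 and 3 were both left out (0.0658). It was tested only because the wt LPS mean, 18, passed the filter. MyD88ko against wt with LPS gave log2 −2.67 (95% interval −4.69 to −0.66) without overlap and did not pass (adjusted p = 0.234). The LPS responses in MyD88ko and wt cells differed by log2 −2.23 (−5.09 to 0.62, adjusted p = 0.637), so a loss of the response in MyD88ko cells was not shown. In the authors' deposited table the adjusted p for LPS in wt cells was 0.161.

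Bmp4, a BMP ligand of the villus core and crypt-surrounding mesenchyme, was not called in any comparison. Located on chromosome 14 (46383520 to 46390669, minus strand), it had 515, 411 and 125 in MyD88ko LPS, 253, 203 and 214 in MyD88ko untreated, 320, 252 and 238 in wt LPS and 290, 1045 and 84 in wt untreated libraries. The spread was widest in wt untreated cells, where replicates 2 and 3 were the highest and the lowest of all 12 libraries. LPS against untreated in wt cells gave log2 −0.14 with all libraries, 0.77 without wt untreated replicate 2, and −1.96 without replicates 1 and 3 (adjusted p = 0.927, 0.380 and 0.0446), so the value rests on which of them is used. With LPS, MyD88ko against wt gave log2 0.15 (95% interval −1.63 to 1.94).

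Grem1, which encodes the BMP antagonist Gremlin 1, was lower in every MyD88ko library than in every wt library, without passing the test. Located on chromosome 2 (113746164 to 113758646, minus strand), it had 1988, 2903 and 2017 in MyD88ko LPS and 2209, 2935 and 2082 in MyD88ko untreated libraries, against 4645, 3876 and 3777 in wt LPS and 4397, 3497 and 3075 in wt untreated libraries. The closest pair of genotypes was MyD88ko untreated replicate 2 at 2935 and wt untreated replicate 3 at 3075. With LPS the difference was log2 −0.85 (95% interval −1.30 to −0.40, limma adjusted p = 0.0525), and it passed without MyD88ko LPS replicate 2 (log2 −1.03, adjusted p = 0.0419), after quantile normalization (log2 −1.08, 0.0148) and with 5 added before the logarithm (0.0492). Untreated, it was log2 −0.60 (−1.05 to −0.15, adjusted p = 0.160), and −0.55 without wt untreated replicates 1 and 3. LPS gave log2 −0.07 (−0.52 to 0.38) in MyD88ko cells and 0.17 (−0.27 to 0.62) in wt cells. The authors' deposited table gives an adjusted p of 1 for both genotype comparisons of Grem1.

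Of the members listed, 3 had a promoter window in the RefSeq table (GRCm38.p6), and those of Grem1 and Bmp4 are shown because these genes are an antagonist and its target, with the 250 bases before the annotated start read 5′ to 3′ on the gene's strand. Capitals mark matches, on either strand, to GGGCGG (the GC box bound by Sp1), CCAAT (bound by NF-Y), CACGTG (an E-box) and GGCGCC (a GC-rich element known to bind BMP Smads). The Grem1 window is chr2:113758649-113758898 and the Bmp4 window chr14:46390670-46390919, both on the minus strand.
Grem1: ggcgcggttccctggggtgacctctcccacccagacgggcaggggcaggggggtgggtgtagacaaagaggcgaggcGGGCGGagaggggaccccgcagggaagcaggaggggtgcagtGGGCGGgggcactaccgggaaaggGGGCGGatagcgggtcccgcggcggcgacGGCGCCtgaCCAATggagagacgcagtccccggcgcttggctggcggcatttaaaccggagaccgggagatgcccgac
Bmp4: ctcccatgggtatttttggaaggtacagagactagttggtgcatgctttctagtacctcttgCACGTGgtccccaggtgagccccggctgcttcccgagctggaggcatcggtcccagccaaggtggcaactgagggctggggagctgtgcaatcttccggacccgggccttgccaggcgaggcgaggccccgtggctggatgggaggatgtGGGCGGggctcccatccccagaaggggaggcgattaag
The Grem1 window was 72% G and C and held 3 GC boxes, whose first bases lay 173, 131 and 107 bases before the start, a CCAAT at 69 and a GGCGCC at 78. The Bmp4 window was 63.2% G and C and held 1 GC box at 38 and an E-box at 188. Of 32851 windows of that length in the table, 32.7% held a GC box, 33.8% CCAAT, 9.59% GGCGCC and 6.02% the E-box. The letters of the κB consensus (bound by NF-κB, the factor that LPS activates), AP-1 (TGANTCA), TCF/LEF (CTTTGAT) and TATAAA were not in either window, and 7.25%, 6.75%, 3.21% and 12.4% of all windows held them.

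The members also differed in how closely replicates agreed. The pooled within-group SD on the log2 scale was 0.15 for Wnt5a, 0.19 for Dkk3 and 0.26 for Grem1, below the median of 0.40 over all genes tested. It was 0.50 for Sfrp1, 0.51 for Rspo3, 1.07 for Bmp4, 1.13 for Bmp2 and 1.51 for Wnt2b. The untreated genotype difference of Wnt5a, log2 0.90, is thus smaller than 1 SD between replicates of Bmp4, Bmp2 or Wnt2b.

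Other genes of the pathways were taken from 8 lists of 128 genes, members included, of which 93 were listed and 72 tested. The lists were drawn up with earlier results of these data known, so their shares are descriptions. With LPS, 3 of the 72 were higher and 3 lower in MyD88ko than in wt cells, or 8.33%, beside 1.49% of all genes. Untreated, 1 was higher and 5 lower, again 8.33%, beside 1.88% of all genes. For LPS in MyD88ko cells, 2 of 72 were higher and 1 lower, or 4.17% beside 5.98%, and in wt cells 6 were higher and 4 lower, or 13.9% beside 19.2%. The median of the 72 was −0.06 with LPS and −0.09 untreated between genotypes, and 0.05 in MyD88ko and −0.0084 in wt cells for LPS. None of the 72 differed in its LPS response between genotypes by limma, where 2 of all genes tested were called (0.0161%, 1 higher and 1 lower, 0.00807% each) and 1137 had an unadjusted p under 0.05, and 0 of the 8 members had one.

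On the list of secreted Wnt antagonists, Igfbp4 fell in MyD88ko cells under both conditions and Frzb untreated, beside Sfrp1. Of 5 tested genes of 14 on that list, 2 were called lower in MyD88ko cells with LPS, 3 untreated and none higher. With LPS and untreated, 1.04% and 1.09% of all genes were called lower, and the list median log2 was −1.03 and −1.81. That list was drawn up with earlier results of these data known and holds the member Sfrp1, so these counts and medians are descriptions. Igfbp4, a binding protein of insulin-like growth factors that also inhibits Wnt signalling, had 157, 177 and 281 in MyD88ko LPS and 230, 211 and 168 in MyD88ko untreated libraries, against 1333, 1606 and 1230 in wt LPS and 1098, 1631 and 1146 in wt untreated libraries. Its levels in the genotypes did not overlap, and it was 6.93-fold lower with LPS (log2 −2.79 ± 0.24 SE, limma adjusted p = 2.80e-06) and 6.29-fold lower untreated (log2 −2.65 ± 0.24 SE, adjusted p = 6.83e-06). Frzb, another frizzled-related protein, had 248, 280 and 128 in MyD88ko LPS and 172, 159 and 244 in MyD88ko untreated libraries, against 355, 482 and 442 in wt LPS and 597, 745 and 650 in wt untreated libraries. It fell 3.50-fold untreated (adjusted p = 0.000833), and with LPS it was log2 −1.03 and did not pass (adjusted p = 0.0590). Dkk2 and Dkk3 did not pass in either genotype comparison. The Igfbp4 and Frzb calls held in all 17 alternatives, which were run for genes other than the members after their values were seen.

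**Figure D3:**
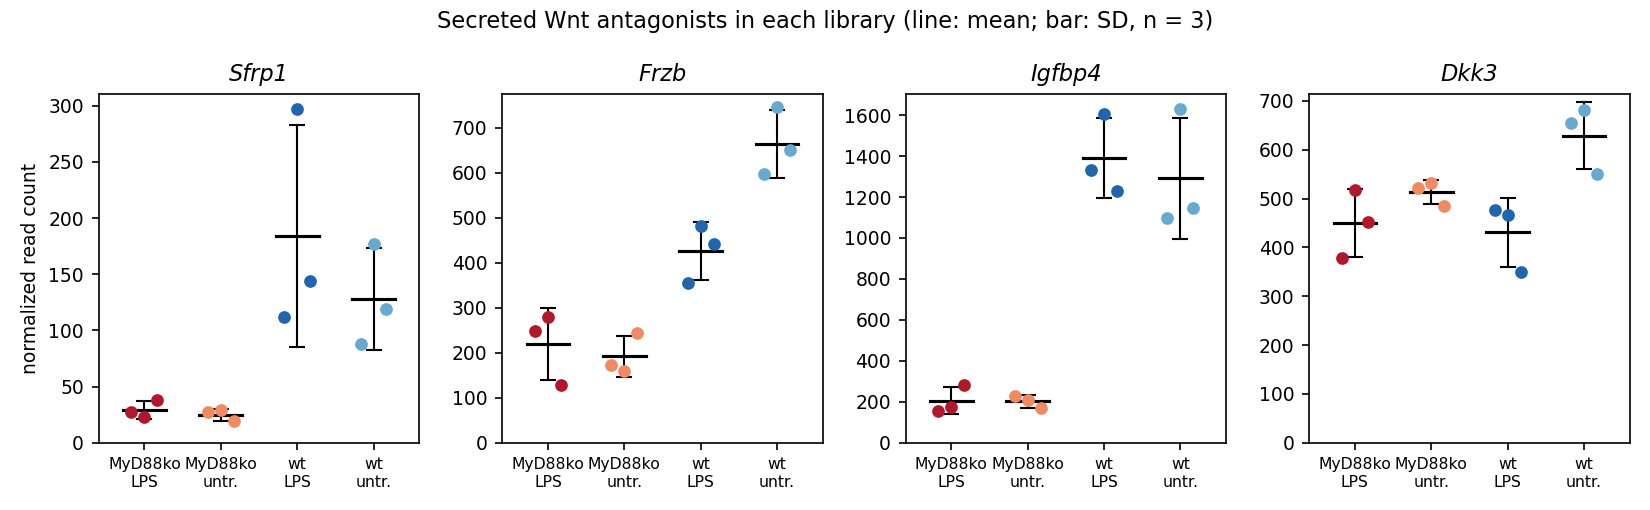
Normalized read count (vertical axes, from 0) of 4 secreted Wnt antagonists in each library, with lines for group means and bars for the SD over 3 libraries. The MyD88ko points of Sfrp1, Frzb and Igfbp4 lie below all wt points, whereas those of Dkk3 overlap with wt LPS.

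Between genotypes, Fzd5, Fzd6 and Cd44 were the Wnt receptors and targets that were called. Of 15 tested genes of the receptor and R-spondin list, 2 were called higher in MyD88ko than in wt cells with LPS and none was called untreated. Fzd5, a frizzled receptor of Wnt ligands, had 282, 401 and 377 in MyD88ko LPS libraries against 136, 176 and 167 in wt LPS libraries (log2 1.13, limma adjusted p = 0.0155). Fzd6, a frizzled receptor of polarity signalling, had 26, 45 and 105 against 16, 16 and 6 in the same groups (log2 2.01, adjusted p = 0.0470). Neither overlapped between genotypes with LPS. Cd44, a cell-surface receptor on the list of canonical Wnt targets, had 468, 280 and 282 in MyD88ko LPS libraries against 622, 659 and 713 in wt LPS libraries (log2 −0.99, adjusted p = 0.0318). It rose with LPS in wt cells, where untreated libraries had 352, 322 and 328 (log2 0.99, adjusted p = 0.00498). Wisp1 (Ccn4), a secreted matrix protein induced by Wnt, fell with LPS in wt cells, to 2495, 4915 and 4531 against 5976, 11065 and 8628 untreated (log2 −1.12, adjusted p = 0.00416). Lgr4, a receptor for R-spondins, fell with LPS in wt cells (log2 −1.19, adjusted p = 0.0457). In MyD88ko cells the co-receptor Lrp5 rose with LPS (log2 1.61, adjusted p = 0.00694) and the receptor Fzd7 fell (log2 −1.15, adjusted p = 0.0164). In wt cells they moved the same way without passing, Lrp5 by log2 0.76 (adjusted p = 0.123) and Fzd7 by log2 −0.68 (adjusted p = 0.0923). Their LPS responses were not shown to differ between genotypes (limma adjusted p = 0.606 for Lrp5 and 0.741 for Fzd7). The calls of Wisp1 and Lrp5 held in every alternative. That of Fzd6 was lost in 11 of 17, among them limma without trend (0.126), voom weights (0.141), a minimum mean of 50 (0.0604) and only the groups compared (0.136). The call of Fzd5 was lost without wt LPS replicate 1 (0.106) or MyD88ko LPS replicate 2 (0.0925), and that of Fzd7 without MyD88ko untreated replicate 1 (0.0649) or 2 (0.104) or MyD88ko LPS replicate 3 (0.0634). Limma without trend also lost Fzd5 (0.0855), Fzd7 (0.0734), Lgr4 (0.0663) and Cd44 between genotypes (0.128). A fit of only the groups compared lost Lgr4 (0.0538) and Cd44 between genotypes (0.0712), and voom weights lost Lgr4 (0.0509). Fzd6 was also lost when any 1 of MyD88ko LPS replicates 2 and 3 and wt LPS replicates 1, 2 and 3 was dropped (0.0689 to 0.221), as was Cd44 between genotypes (0.0924 to 0.159), and Lgr4 when wt LPS replicate 2 or 3 or any 1 wt untreated library was dropped (0.0690 to 0.166). With wt untreated replicates 1 and 3 both left out, Cd44 for LPS in wt cells (0.0699), Lgr4 (0.226) and Fzd6 (0.0650) lost their calls.

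Among BMP genes beyond the members, 3 of 9 tested genes of the ligand list were called higher with LPS in wt cells, where 9.55% of all genes were, and 1 of them is the member Bmp2, which was tested only through wt LPS. Inhba, the activin βA chain, had 287, 173 and 396 in wt LPS libraries against 69, 62 and 122 untreated (log2 1.73, limma adjusted p = 0.000704). Gdf15, a stress-induced ligand of the same superfamily, rose as well (log2 0.91, adjusted p = 0.0376), and its groups overlapped. Of the 12 tested receptors and Smads, Smad1, which carries BMP signals to the nucleus, rose with LPS in wt cells (log2 0.93, adjusted p = 0.0129). Of 8 tested BMP antagonists, the activin-binding Fstl3 rose (log2 1.36, adjusted p = 0.000918) and the BMP-binding Bmper fell (log2 −1.20, adjusted p = 0.000821) with LPS in wt cells. Between genotypes Fst, the activin antagonist follistatin, fell untreated, with 32, 15 and 9 in MyD88ko libraries against 56, 60 and 70 in wt libraries (log2 −1.85, adjusted p = 0.0343). Bambi, a decoy receptor on the BMP target list, had 3, 1 and 2 in MyD88ko untreated libraries against 24, 18 and 12 in wt untreated libraries (log2 −2.67, adjusted p = 0.0148). It had 8, 19 and 10 in MyD88ko LPS libraries, called higher with LPS there (log2 2.12, adjusted p = 0.0283), but not with 5 added before the logarithm (log2 1.27, 0.0586), with voom weights (0.119) or in a fit of only the groups compared (0.116). The other 10 of 11 tested BMP targets were not called in either of these comparisons. The calls of Inhba and Fstl3 held in every alternative, and Bmper was lost where wt untreated replicates 1 and 3 were both left out (0.0557). Smad1 was lost without wt untreated replicate 1 (0.0595) or wt LPS replicate 3 (0.0560), and Gdf15 when wt untreated replicate 1 or 2 or wt LPS replicate 2 or 3 was dropped, reaching 0.163. Fst was lost when MyD88ko untreated replicate 2 or 3 or any 1 wt untreated library was dropped (0.0504 to 0.219). Limma without trend also lost Gdf15 (0.0981) and Fst (0.08). Voom weights (0.0945) and a fit of only the groups compared (0.0762) lost the untreated genotype call of Bambi. The untreated genotype call of Bambi was lost when MyD88ko untreated replicate 2 or 3 or wt untreated replicate 1 was dropped (0.0640 to 0.112), and its LPS call in MyD88ko cells when MyD88ko LPS replicate 2 or MyD88ko untreated replicate 2 or 3 was (0.0682 to 0.125). With wt untreated replicates 1 and 3 both left out, the adjusted p was 0.225 for Smad1, 0.0699 for Gdf15, 0.481 for Fst and 0.313 for Bambi untreated between genotypes.

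**Figure D4:**
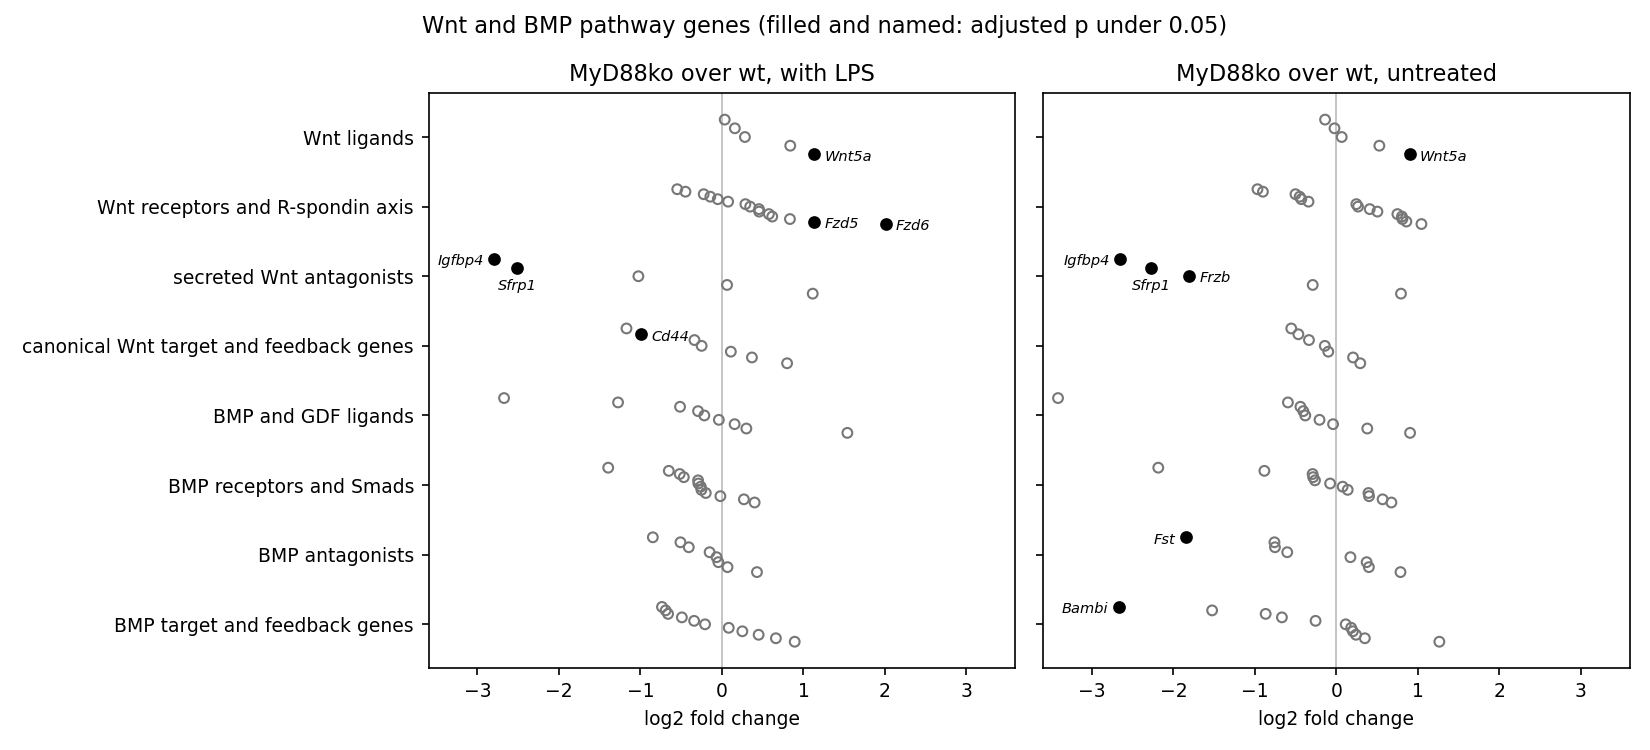
Log2 fold change (horizontal axes) of each tested gene of 8 Wnt and BMP lists between genotypes, with LPS and untreated, filled and named where the adjusted p is under 0.05. The filled genes among secreted Wnt antagonists all lie left of 0, and Wnt5a is the only filled ligand in either panel.

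For each member, the 3 tested genes whose library profile lay nearest were named, by the root mean square difference of log2(value + 1) over the 12 libraries after centring each gene on its own mean. A shared order of groups or a shared highest replicate, here and below, follows from that choice and is a description. Nearest to Wnt5a, whose own profile had a root mean square of 0.61, were Impa2 at 0.15, Gpc4 at 0.24 and Npy1r at 0.24. Impa2, an inositol monophosphatase, had 86, 89 and 83 in MyD88ko LPS, 101, 129 and 126 in MyD88ko untreated, 33, 39 and 38 in wt LPS and 60, 70 and 57 in wt untreated libraries, the same order of groups as Wnt5a. Gpc4, a cell-surface heparan sulfate proteoglycan, had 1188 to 1290 in MyD88ko LPS, 1394 to 1617 in MyD88ko untreated, 540 to 601 in wt LPS and 633 to 850 in wt untreated libraries.

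Nearest to Sfrp1, with an own value of 1.28, were Igfbp4 at 0.35, Serping1 at 0.44 and Clmp at 0.44, the first of them from the list of Wnt antagonists. Serping1, the inhibitor of complement C1, had 114, 177 and 81 in MyD88ko LPS and 92, 164 and 67 in MyD88ko untreated libraries, against 439, 936 and 546 in wt LPS and 378, 583 and 356 in wt untreated libraries. Like Sfrp1, it was highest in replicate 2 of both wt groups. Nearest to Grem1 (0.42) were Dhx40 at 0.16, Dpy19l1 at 0.21 and Asph at 0.23. Nearest to Rspo3 (0.57) was Dcn at 0.22, a collagen-binding proteoglycan that is itself one of the fibroblast markers, followed by Gm10355 at 0.25 and Il6st at 0.27. Dcn had 8853, 12824 and 12118 in MyD88ko LPS, 5837, 10361 and 7158 in MyD88ko untreated, 7008, 10802 and 7582 in wt LPS and 4011, 7937 and 3728 in wt untreated libraries, with replicate 2 the highest in each group, as for Rspo3. Nearest to Dkk3 was Wtap at 0.10 and to Bmp4 Acot2 at 0.38, which also had its highest value, 340, in wt untreated replicate 2. The sparse genes Bmp2 and Wnt2b had no near neighbour, the nearest being Gm7278 at 0.84 and Pms1 at 0.75.

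**Figure D5:**
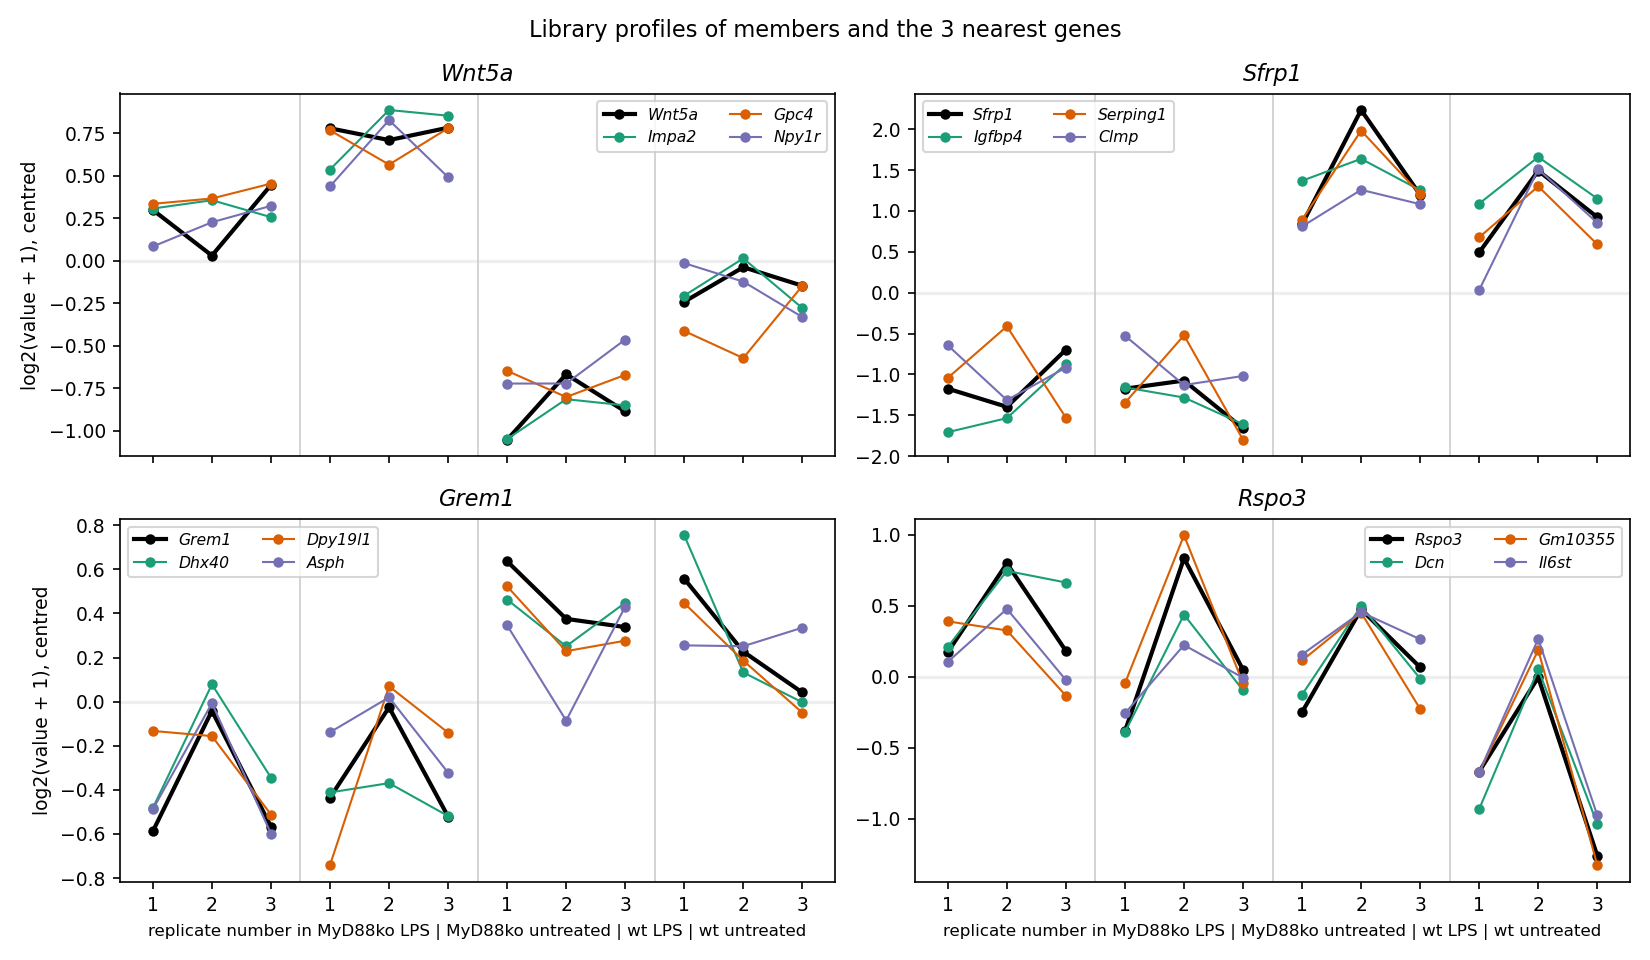
Log2(value + 1) centred on each gene's mean (vertical axes) in the 12 libraries (horizontal axes, replicates 1 to 3 of each group) for Wnt5a, Sfrp1, Grem1 and Rspo3 in black and their 3 nearest genes in colour. Wnt5a and its neighbours lie higher in MyD88ko than in wt libraries and lower with LPS than untreated, Sfrp1 and its neighbours lie lower in MyD88ko libraries, and Rspo3 with Dcn peaks in replicate 2 of every group.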

How the data were processed

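RNA from 12 libraries was analysed, 3 per group. Per the submitters' processing notes, TopHat2, Bowtie2, DESeq and the build mm10 were used; versions are not given in the sources used here. The authors deposited a table per comparison. Their expression values are scores, here gene-level read counts after the authors' own scaling and rounding to integers, so no count model was the main test. A library appears in a pair of tables, and all 166719 such repeated values were equal (0 unequal). The deposited p-value and adjusted p-value and the deposited log2 fold change per gene are quoted as the authors' own. Normalized totals were 3599944 to 4320551 per library. Each library's depth was estimated from how often each whole number occurs among its low values, since rounding of scaled counts makes some rarer and others more frequent.

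The fit to log2(value + 1) used R 4.3.3 and limma 3.58.1 (limma-trend, robust, 1 fit of 12 libraries, 8 residual degrees of freedom, two-sided, Benjamini-Hochberg adjustment over all genes tested). A gene entered if all 12 libraries gave a value and some group's mean reached 10; 12385 did. The code was tested on simulated data. Fold changes of low genes are drawn toward 1 by the added 1. Promoter windows came from RefSeq (GRCm38.p6).

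The members, the 8 pathway lists and the 9 marker lists were chosen with earlier results of these data known. Named genes were the members, Myd88 and Tlr4, up to 4 called genes with the smallest p per list and comparison, and the 3 genes nearest in profile to each member. Tlr4, the LPS receptor, had 144, 95 and 40 in MyD88ko LPS, 131, 107 and 113 in MyD88ko untreated, 111, 63 and 125 in wt LPS and 124, 233 and 165 in wt untreated libraries. Marker genes with values in all libraries were 2 of 3 for interstitial cells of Cajal (summed level 1 to 34) and 5 of 6 for sub-crypt fibroblasts (2406 to 4059). Alternatives were quantile normalization, a TMM-like rescaling, voom weights, limma without trend, a minimum mean of 50 or none, pseudocounts of 0.5 and 5, a replicate block, only the groups compared, and leaving out libraries.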

Additional observations from a re-analysis of the deposited data

How the results depend on the processing

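Over 40 member results there were 703 values under alternatives. Of these, 654 kept direction and side of the threshold, 15 lost a call, 8 gained one and 26 turned direction, and none of the 26 was called either way; except where stated, the cause was not tested. Sfrp1 in both genotype comparisons and Wnt5a with LPS kept their calls throughout. Wnt5a for LPS in wt cells (−0.83, adjusted p = 0.0718), Wnt5a untreated between genotypes (0.79) and Bmp2 for LPS in wt cells (4.20) lost their calls without both wt untreated replicates 1 and 3, which leaves fewer libraries; Wnt5a untreated also did without trend (0.90, adjusted p = 0.0769), and Bmp2 with 0.5 added (3.58). Leaving out 1 library at a time gave −0.83 to −0.63 for Wnt5a with LPS in wt cells, 0.85 to 0.95 for Wnt5a untreated between genotypes and 2.54 to 3.70 for Bmp2. Quantile normalization turned Wnt2b (0.15) and Bmp2 (0.0583) untreated between genotypes, and leaving out both wt untreated replicates turned Bmp2 there (0.67), Sfrp1 for LPS in wt cells (−0.0693) and the response differences of Sfrp1 (0.28) and Rspo3 (0.12). Leaving out 1 library turned Bmp4 for LPS in wt cells (−1.04 to 0.77) and, for LPS in MyD88ko cells, Wnt2b (−2.09 to 0.0703), Grem1 (−0.25 to 0.0796) and Rspo3 (−0.0569 to 0.55). Between genotypes untreated it turned Wnt2b (−0.60 to 0.19), Bmp2 (−1.11 to 0.17) and Bmp4 (−1.30 to 0.51), and with LPS Wnt2b (−0.90 to 1.27), Bmp4 (−0.24 to 0.78) and Dkk3 (−0.0812 to 0.18). For the response difference it turned Wnt2b (−0.76 to 1.40), Sfrp1 (−0.53 to 0.17) and Bmp4 (−0.35 to 1.46).

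Genes called over the whole table numbered 2380 for LPS in wt cells, 973 without both wt untreated replicates and 1570 to 1947 without 1 library. For LPS in MyD88ko cells they numbered 741, 425 without trend and 337 to 652 without 1 library. Between genotypes with LPS they numbered 185, 112 without trend and 85 to 189 without 1 library, and untreated 233, 74 without trend, 131 with voom weights, 36 without both and 64 to 416 without 1 library. For the response difference 2 were called, 4 after quantile normalization, 14 without both, 0 to 44 without 1 library, and 0 without trend, with voom weights, with a mean of at least 50 or with 0.5 added. With a mean of at least 50, Bmp2 and Wnt2b were not tested. Deviations from the group means correlated weakly between same-numbered libraries (r = −0.114 to 0.171 over 12 pairs, 2 over 0.1). For LPS in wt cells every library correlated best with its own number. A pairing by number was thus not shown, and these values cannot exclude it. The replicate block gave 206 and 278 calls between genotypes with LPS and untreated, 763 and 2389 for LPS in MyD88ko and wt cells and 2 for the response difference, and it brought Grem1 between genotypes with LPS (adjusted p = 0.0458) and Rspo3 for LPS in wt cells (adjusted p = 0.0402) past the threshold. Of 19 calls of pathway genes that are not members, 7 held in every alternative, 12 were lost in at least 1, and 0 turned. Depth limits what can be seen of Bmp2 and Wnt2b.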
